A study of Macaca fascicularis with 16 samples.

Results

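The genes described here encode the proteins of the mitochondrial ribosome, measured in the endometrium of 16 postmenopausal female cynomolgus macaques. They were chosen by name: every gene to which the array platform gave a single symbol starting with MRPL or MRPS and a number. There were 62 such genes among 14132 genes with a single symbol, 40 with an MRPL symbol (large subunit) and 22 with an MRPS symbol (small subunit). The RefSeq annotation of the cynomolgus genome lists 75 protein-coding symbols of this form. Of these, 61 were among the members, and 14 were not analysed here, among them MRPL3, MRPL13, MRPS15 and MRPS17. The endometrium is the inner lining of the uterus, and in a postmenopausal animal it is thin and receives little estrogen of its own.

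Each animal was assigned at random to 1 of 4 arms of 4 animals and treated through the diet for 4 months. The estradiol arm received 0.25 mg of micronized estradiol per 1800 kcal, a low dose of the natural estrogen. The tamoxifen arm received 20 mg of tamoxifen per 1800 kcal, a selective estrogen receptor modulator, which blocks the estrogen receptor in some tissues and activates it in others. The combination arm received both drugs at these doses, and the control arm received placebo. Each sample is 1 animal, total RNA was labelled in a single round of amplification, and the array is a 1-colour Affymetrix design for the rhesus macaque, a close relative. A signal is therefore the brightness of a probe set in the authors' scaled units, and a species difference under a probe can lower it in every arm alike. Signals of different genes are not set against each other as amounts of RNA.

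Mitochondria carry their own ribosomes, which translate only the few proteins encoded by mitochondrial DNA, all of them core subunits of the respiratory chain or of ATP synthase. The ribosomal RNAs come from mitochondrial DNA, whereas every protein of the mitochondrial ribosome is encoded in the nucleus, made in the cytosol and imported. Some of these proteins have counterparts in bacterial ribosomes, and others occur only in mitochondria. In the uterus, estrogen drives growth of the glands and the stroma, with rounds of cell division. No protein, promoter or probe sequences of these genes were used here.

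All 62 genes passed the filter on dim probe sets, which removed the dimmest 40% and kept 10706 genes. Each gene is represented by its brightest probe set, and 24 of the 62 genes had more than 1. Mean signals over the 16 arrays ran from 67.4 for MRPL54 to 1712 for MRPL33, with a median of 708 (644 over the MRPL genes and 754 over the MRPS genes), against 382 over all genes tested. The genes also varied less between animals of one arm. Their median standard deviation within an arm was 0.17 on the log2 scale, against 0.24 over all genes tested. All genes tested were not matched to them for signal, and the part of brightness in this difference was not tested. Differences below are between arm means of log2(signal + 4.80), so a difference of 1 is a doubling, and the added 4.80 makes the change of a dim gene look smaller than it is. A gene passed the test where its p-value, adjusted over all 31660 probe sets tested, was under 0.05 (limma). Every comparison with control used the same 4 control animals, so these comparisons are not independent of each other.

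Arrays are named by their arm and number. Of the 16, estradiol 4 and tamoxifen 1 stood apart in smooth muscle genes. ACTG2, a smooth muscle actin, had signals of 123 on estradiol 4 and 4698 on tamoxifen 1, against 5214 to 11770 on the other arrays. The mean log2 deviation of the smooth muscle list was -4.13 on estradiol 4 and -0.80 on tamoxifen 1, and lay between -0.10 and 0.69 on the others. The log2 ratio of the actin 3′ to the actin 5′ control probes, which rises as RNA is broken, averaged 0.57 ± 0.18 in the estradiol arm, 0.52 ± 0.043 in the tamoxifen arm, 0.55 ± 0.075 in the combination arm and 0.92 ± 0.11 in the control arm (SD, n = 4 each). Two-sided exact permutation tests against controls gave p = 0.0571 for estradiol, 0.0286 for tamoxifen and 0.0286 for the combination, where 0.0286 is the smallest p that 4 against 4 arrays allow. After Benjamini-Hochberg adjustment over the 3 tests these were 0.0571, 0.0429 and 0.0429, so tamoxifen and the combination passed and estradiol did not. The part of this ratio in the results below was not tested. In whole tissue, fewer cells of a type and less RNA per cell cannot be told apart.

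With estradiol alone, 25 of the 62 genes were higher than in controls and 1 was lower, against 16.5% of all genes tested that were higher and 13.2% that were lower. That is 40.3% of the mitochondrial ribosomal protein genes higher and 1.61% lower. The MRPL genes gave 15 of 40 higher and 0 lower (22 and 0 at an unadjusted p under 0.05, limma), and the MRPS genes 10 of 22 higher and 1 lower. The median difference was 0.27 over the MRPL genes and 0.32 over the MRPS genes, against 0.01 over all genes tested. In 25 genes every estradiol array lay above every control array and in 2 below, where 15.4% and 13% of all genes did so. Differences above 0 were seen in 46 of the 62 genes (74.2%). The estradiol arm had the highest mean of the 4 arms in 34 of the 62 genes (54.8%), and the control arm had the lowest in 37 (59.7%); over all genes tested these shares were 32.1% and 36.7%. The median member had a 1.22-fold signal with estradiol, and 36 members did not pass.

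**Figure D1:**
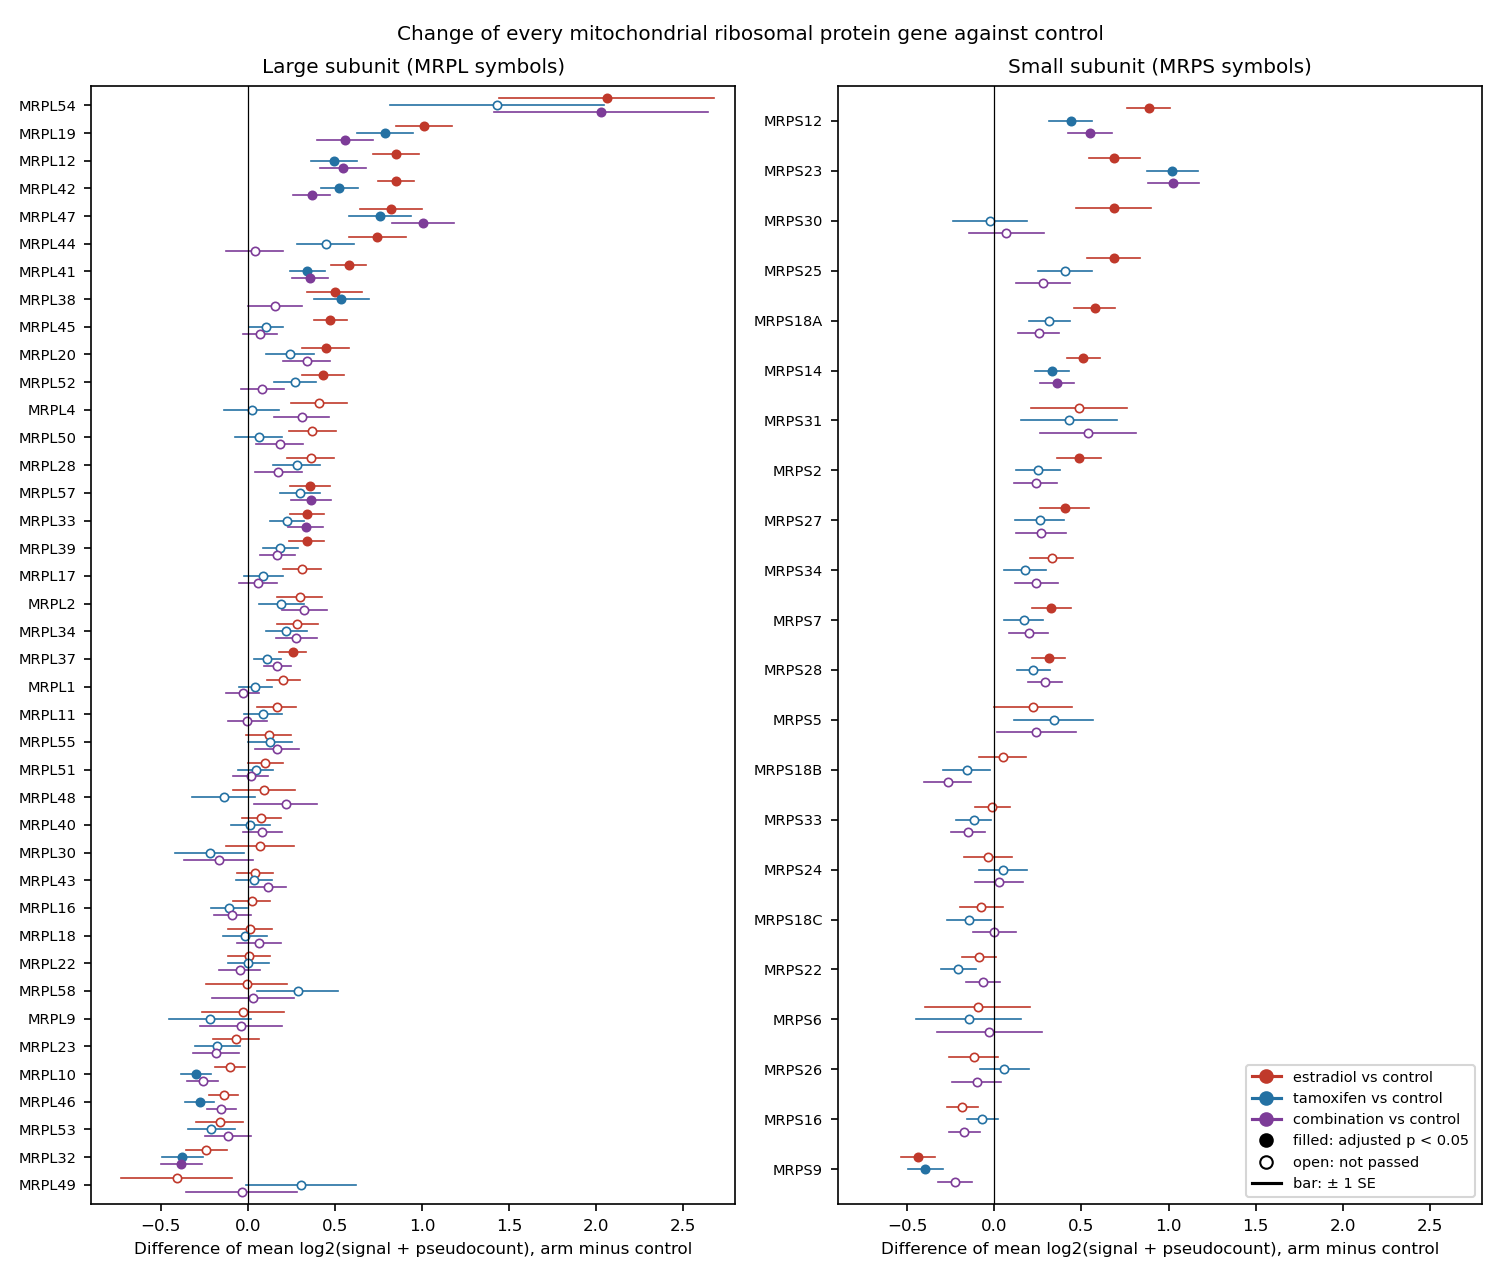
Difference of each of the 62 genes from control on the log2(signal + pseudocount) scale, MRPL genes on the left and MRPS genes on the right, ordered by the estradiol difference; points are estimates for estradiol, tamoxifen and the combination, bars are 1 standard error, and filled points have an adjusted p under 0.05. Leaving aside MRPL54, whose controls lie near background, the estradiol points of MRPL19, MRPL12, MRPL42, MRPL47 and MRPS12 lie farthest to the right, MRPS9 lies farthest to the left among the MRPS genes, and many genes sit close to 0 in all 3 comparisons.

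Among the large subunit proteins with bacterial counterparts, MRPL12 forms the stalk that binds translation factors, and it was one of the most clearly raised genes. MRPL12 had signals of 858, 900, 593 and 837 in the estradiol arm, 645, 591, 666 and 557 in the tamoxifen arm, 636, 756, 569 and 597 in the combination arm, and 437, 409, 485 and 408 in controls. Every treated animal was above every control, and 3 of the 4 estradiol animals were above all others. With estradiol MRPL12 differed by 0.85 (SE 0.13, adjusted p = 0.000458), a 1.80-fold signal. The other proteins of the stalks and the stalk base did not follow it past the threshold: MRPL1 differed by 0.20, MRPL11 by 0.17 and MRPL10 by -0.10 with estradiol.

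MRPL19 belongs to the conserved core of the large subunit. Its signals were 521, 468, 398 and 418 with estradiol, 348, 416, 439 and 345 with tamoxifen, 290, 266, 402 and 367 with the combination, and 176, 261, 205 and 250 in controls. No treated array fell within the control range. Estradiol gave a difference of 1.01 (SE 0.16, adjusted p = 0.000528), a 2.01-fold signal. MRPL47 sits near the exit of the tunnel through which the new protein leaves the ribosome. It had signals of 1486, 1278, 1100 and 756 with estradiol, 942, 1163, 1068 and 1130 with tamoxifen, 1608, 1177, 1341 and 1039 with the combination, and 699, 625, 673 and 545 in controls. All 3 treated arms lay above the controls, and estradiol 4, at 756, was the closest to them. Its estradiol difference was 0.82 (SE 0.18, adjusted p = 0.00387).

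MRPL32, which is cut to its mature form by a protease of the inner membrane, went the other way. MRPL32 had signals of 625, 588, 641 and 826 with estradiol, 622, 563, 628 and 604 with tamoxifen, 585, 597, 521 and 717 with the combination, and 854, 741, 818 and 733 in controls. The tamoxifen and combination arrays were all below the controls, whereas 1 estradiol array lay inside the control range. With estradiol the difference of -0.24 missed the threshold (SE 0.12, adjusted p = 0.153). Of all genes tested, 16.5% were higher with estradiol and 13.2% were lower. Of the 21 conserved large subunit proteins, 5 were higher and 0 were lower (11 and 0 at an unadjusted p under 0.05, limma). Besides MRPL12, MRPL19 and MRPL47 these were MRPL20 (0.45) and MRPL33 (0.34).

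Of the 19 large subunit proteins that occur only in mitochondria, 10 were higher with estradiol and 0 were lower (11 and 0 at an unadjusted p under 0.05, limma). The shares of all genes tested were again 16.5% and 13.2%. MRPL42 had the smallest p-value of all members. Its signals were 531, 516, 497 and 513 in the estradiol arm, 458, 399, 458 and 333 in the tamoxifen arm, 378, 354, 360 and 370 in the combination arm, and 292, 259, 283 and 299 in controls. The estradiol, combination and control arrays formed 3 separate ranges, in that order from high to low, with the tamoxifen arrays spread between 333 and 458. Estradiol raised MRPL42 by 0.85 (SE 0.11, adjusted p = 9.88e-05), a 1.80-fold signal.

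MRPL41 had signals of 866, 953, 836 and 1097 with estradiol, 866, 749, 749 and 807 with tamoxifen, 810, 774, 737 and 881 with the combination, and 579, 663, 673 and 583 in controls. Treated and control arrays did not overlap, and the estradiol difference was 0.58 (SE 0.10, adjusted p = 0.00106). MRPL45 lies at the tunnel exit and helps to hold the ribosome at the inner membrane. Its signals were 1020, 920, 880 and 1103 with estradiol, 759, 700, 765 and 799 with tamoxifen, 772, 663, 738 and 781 with the combination, and 761, 667, 745 and 644 in controls. Here the estradiol arm alone lay above the others: its lowest array, 880, exceeded every array of the other arms. The estradiol difference was 0.47 (SE 0.096, adjusted p = 0.00253).

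MRPL44 carries the fold of an RNA-cutting enzyme and also lies near the tunnel exit. Its signals were 611, 498, 642 and 453 with estradiol, 426, 414, 361 and 607 with tamoxifen, 347, 315, 373 and 302 with the combination, and 275, 393, 329 and 310 in controls. The estradiol arrays were all above the controls, the combination arrays lay inside the control range, and the tamoxifen arrays spread from 361 to 607. MRPL44 rose by 0.74 with estradiol (SE 0.16, adjusted p = 0.00417). Of the 5 members on the list used here for the tunnel exit, MRPL44, MRPL45 and MRPL47 were higher, and MRPL22 (0.01) and MRPL23 (-0.07) did not pass. This list may not hold every member at the exit. Of all genes tested, 16.5% were higher with estradiol.

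The probe set of MRPL54 is the dimmest of the set. MRPL54 had signals of 41.4, 145, 98.7 and 78.5 with estradiol, 139, 41.3, 26.6 and 45.5 with tamoxifen, 39.6, 155, 64.4 and 107 with the combination, and 6.30, 61.9, 23.9 and 4.47 in controls. The arms overlapped, since control 2 exceeded the lowest array of each treated arm. Its mean in controls, 4.40 on the log2(signal + 4.80) scale, lay under the lowest mean that the filter let through, 5.36, so MRPL54 was tested only because of its signal in the treated arms, and no size is given for its differences. It passed with estradiol (adjusted p = 0.0233), but not without control 1 (0.0718), control 4 (0.0731) or estradiol 2 (0.0729), and this call is not read as a change. No other member had an arm mean under that floor. Without MRPL54, 24 of 61 members were higher with estradiol, with 14 of 39 MRPL genes and 9 of the 18 found only in mitochondria among them. MRPL49 marked the low end of the large subunit. Its signals were 318, 339, 417 and 189 with estradiol, 607, 551, 522 and 362 with tamoxifen, 496, 528, 211 and 437 with the combination, and 404, 238, 487 and 572 in controls, and none of its differences passed (estradiol -0.41, SE 0.32, adjusted p = 0.377). The remaining proteins of this class that were higher with estradiol were MRPL38 (0.50), MRPL52 (0.43), MRPL57 (0.36), MRPL39 (0.34) and MRPL37 (0.26).

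In the small subunit, MRPS12 lies at the decoding centre, where the codon meets the tRNA. MRPS12 had signals of 995, 1030, 716 and 1070 in the estradiol arm, 655, 640, 788 and 683 in the tamoxifen arm, 724, 749, 682 and 835 in the combination arm, and 474, 556, 528 and 477 in controls. Treated and control arrays did not overlap, and estradiol 3 was well below the other estradiol arrays. The estradiol difference was 0.88 (SE 0.12, adjusted p = 0.000224), a 1.85-fold signal and the smallest p-value among the MRPS genes. MRPS14, a protein of the head of the small subunit, had signals of 1178, 1179, 1041 and 1311 with estradiol, 1044, 966, 1053 and 1079 with tamoxifen, 1025, 1062, 930 and 1227 with the combination, and 782, 858, 855 and 796 in controls. Again no treated array overlapped the controls, and the estradiol difference was 0.51 (SE 0.095, adjusted p = 0.00148).

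MRPS9 is the exception of the set, the one member that was lower with estradiol. MRPS9 lies in the head of the small subunit, close to the tRNA that carries the growing chain. Its signals were 304, 268, 351 and 304 with estradiol, 302, 325, 330 and 305 with tamoxifen, 345, 369, 332 and 376 with the combination, and 409, 418, 442 and 397 in controls. Every treated animal was below every control. The estradiol difference was -0.44 (SE 0.099, adjusted p = 0.00469), a 0.737-fold signal. MRPS28, related to a bacterial protein that holds messenger RNA on the ribosome, had signals of 906, 883, 740 and 973 with estradiol, 914, 744, 832 and 798 with tamoxifen, 857, 817, 843 and 922 with the combination, and 684, 748, 678 and 696 in controls. Its estradiol and tamoxifen arrays overlapped the controls by 1 array each and its combination arrays did not. The estradiol difference of MRPS28, 0.31 (SE 0.096, adjusted p = 0.0264), did not pass when control 1, 3 or 4 or estradiol 1, 2 or 4 was left out (adjusted p up to 0.0772).

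Of the 11 conserved small subunit proteins, 5 were higher with estradiol and 1 was lower. MRPS2 (0.48) and MRPS7 (0.33) were the remaining ones that rose. Among the 9 small subunit proteins that occur only in mitochondria, 3 were higher and 0 lower (4 and 0 at an unadjusted p under 0.05, limma): MRPS23, MRPS25 (0.68) and MRPS27 (0.40). For both classes, the shares of all genes tested were 16.5% higher and 13.2% lower. MRPS23 had signals of 1131, 1176, 861 and 1194 with estradiol, 1892, 1138, 1304 and 1233 with tamoxifen, 1497, 1438, 1159 and 1406 with the combination, and 674, 668, 665 and 669 in controls. The controls were almost identical to each other, and every treated animal was above them. The estradiol difference of MRPS23 was 0.69 (SE 0.15, adjusted p = 0.0033). MRPS22, variants of which cause mitochondrial disease in humans, did not pass in any comparison. Its signals were 1639, 1282, 1455 and 1139 with estradiol, 1131, 1303, 1255 and 1353 with tamoxifen, 1380, 1353, 1419 and 1393 with the combination, and 1415, 1464, 1476 and 1454 in controls. All 4 tamoxifen and all but the highest combination array stood below the controls, and the differences were -0.09 with estradiol, -0.21 with tamoxifen and -0.07 with the combination. MRPS18B had the lowest difference of an MRPS gene with the combination, which did not pass (-0.27, adjusted p = 0.19): its signals were 859, 1074, 1055 and 1109 with estradiol, 939, 801, 959 and 840 with tamoxifen, 784, 702, 721 and 1123 with the combination, and 962, 1053, 1000 and 932 in controls. A dimmer probe set of MRPS18B, with a mean signal of 40.9, was lower with the combination (-0.73, adjusted p = 0.0293).

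MRPS18A and MRPS30 carry small subunit symbols but were found by structural work to sit in the large subunit, and both were higher with estradiol. MRPS18A had signals of 549, 614, 636 and 656 with estradiol, 556, 443, 505 and 545 with tamoxifen, 496, 497, 444 and 522 with the combination, and 410, 385, 508 and 351 in controls. Only the estradiol arm was clear of the controls, and its difference was 0.58 (SE 0.12, adjusted p = 0.00281). A dimmer probe set of MRPS18A differed by -0.31 (adjusted p = 0.555) in the same comparison. MRPS30 had signals of 1237, 1206, 868 and 1980 with estradiol, 1014, 584, 821 and 728 with tamoxifen, 753, 770, 782 and 1015 with the combination, and 845, 626, 862 and 834 in controls. Estradiol 4, at 1980, was far above the rest and estradiol 3, at 868, was close to the controls. The estradiol difference of MRPS30 was 0.69 (SE 0.21, adjusted p = 0.0288), and it did not pass without control 2 (adjusted p = 0.0783), estradiol 1 (0.0556), estradiol 2 (0.0527) or estradiol 4 (0.0843). Its dimmer probe set gave 0.77 (adjusted p = 0.0157).

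**Figure D2:**
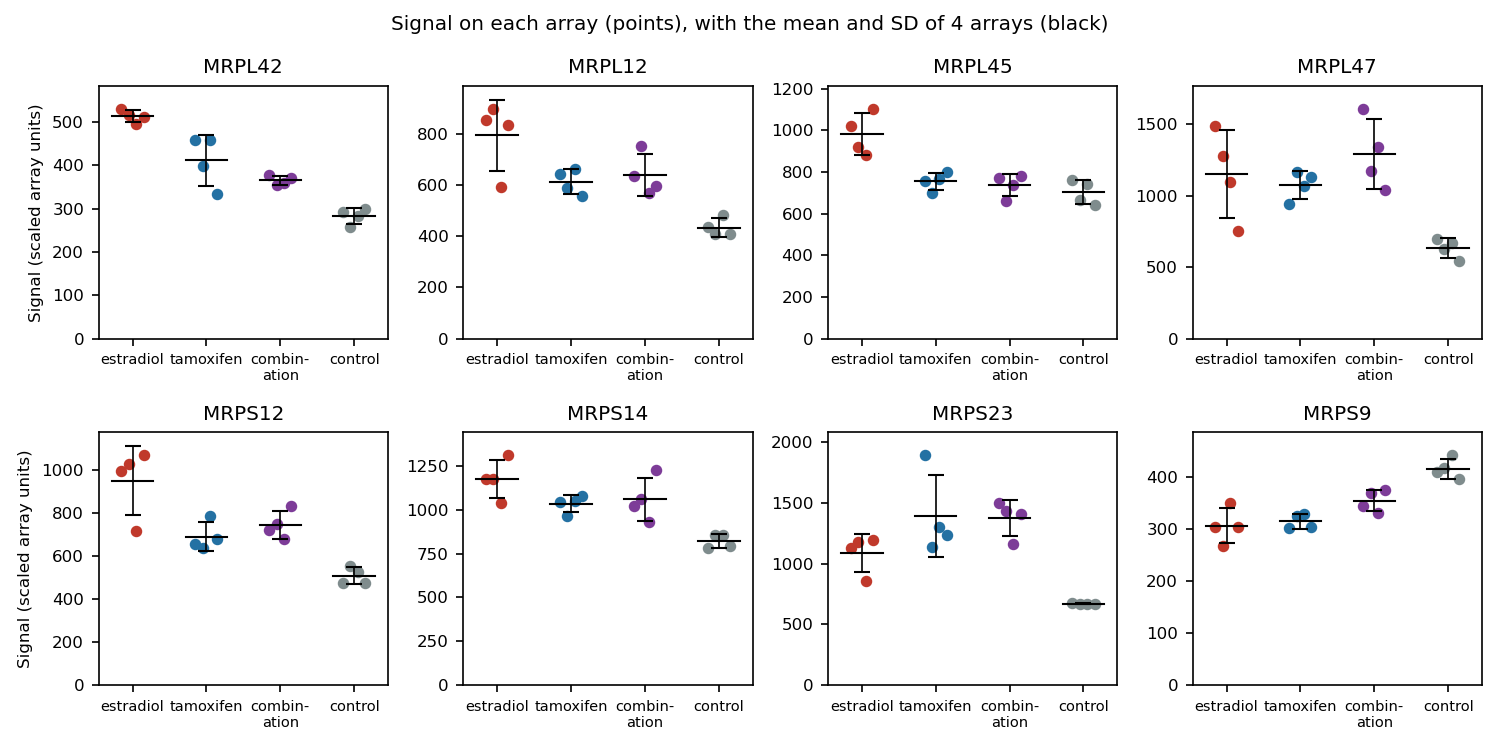
Signal in the authors' scaled units on each of the 16 arrays for 8 members, with estradiol, tamoxifen, combination and control from left to right; points are animals, the long black line is the arm mean and the bars are 1 SD over 4 arrays. MRPL42, MRPL12, MRPL45 and MRPS12 are highest with estradiol, MRPL47 and MRPS23 are raised in all 3 treated arms, and MRPS9 is lowest with estradiol and highest in controls.

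The 36 members that did not pass with estradiol ran from -0.41 (MRPL49) to 0.49 (MRPS31), and MRPL17 missed the threshold most narrowly (0.31, adjusted p = 0.0506). The dimmer probe sets give a second reading of 24 genes. Of the 32 that were tested, 10 were higher with estradiol and 0 were lower (median difference 0.32), against 16.5% and 13.2% of all genes tested. Of the 17 that belong to a gene that passed, 10 had the sign of its brightest probe set and the others the opposite sign, and 0 passed in the opposite direction. The opposite signs were those of MRPL39 (-0.41), MRPL44 (-0.24 and -0.12), MRPL57 (-0.0094), MRPS18A (-0.31) and MRPS25 (-0.30 and -0.23). A further dimmer probe set had the same sign in MRPL44 (0.65), MRPL57 (0.32) and MRPS25 (0.19), and of these that of MRPL44 passed. Of the same 32, 3 were higher and 0 lower with tamoxifen, against 8.59% and 7.64% of all genes tested. With the combination 4 were higher and 1 lower, that of MRPS18B, against 10.6% and 9.09%. With estradiol, in 5 genes a dimmer probe set passed where the brightest had not: MRPL4 (0.87, adjusted p = 0.00455, against 0.41), MRPL2 (0.57, 0.0149, against 0.30), MRPL9 (0.33, 0.0195, against -0.03), MRPL43 (0.70, 0.0471, against 0.04) and MRPS16 (0.50, 0.00401, against -0.18). MRPS16 thus read higher on one probe set and not on the other, and its direction is unsettled here.

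The estradiol count depended on the animals included. It ranged from 17 without estradiol 2 to 26 without estradiol 3, and 13 of the 26 calls, those of MRPL12, MRPL19, MRPL41, MRPL42, MRPL44, MRPL45, MRPL47, MRPS9, MRPS12, MRPS14, MRPS18A, MRPS23 and MRPS25, were kept in every one of the 16 fits without 1 array and in every other alternative. Of the calls not already discussed, that of MRPL20 was lost without control 1 or estradiol 1 (adjusted p up to 0.0679), and that of MRPL33 without estradiol 4 (0.061). Those of MRPL37 (without control 3 or 4 or estradiol 1 or 2, up to 0.0713), MRPL38 (control 1 or 3 or estradiol 2, up to 0.101) and MRPL39 (control 2 or estradiol 2, up to 0.0693) were lost too. So were those of MRPL52 (control 1 or 4 or estradiol 1, up to 0.0526) and MRPL57 (control 1, 2 or 4 or estradiol 2 or 4, up to 0.0975). MRPS7 and MRPS27 each lost theirs in 11 of the 16 fits (up to 0.131). The call of MRPS2 was kept in every fit without 1 array. It was lost with the estradiol and control arrays fitted alone (adjusted p = 0.0601). The number lower was 2 without estradiol 3 and without estradiol 4. Without both estradiol 4 and tamoxifen 1, 23 genes were higher and 2 lower. Fitted on the estradiol and control arrays alone, 13 were higher and 1 lower.

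With tamoxifen alone, 9 of the 62 genes were higher than in controls and 4 were lower, against 8.59% of all genes that were higher and 7.64% that were lower. These counts are 14.5% and 6.45% of the members, so the share that was lower was near that of all genes. The MRPL genes gave 6 of 40 higher and 3 lower, with a median difference of 0.11. The MRPS genes gave 3 of 22 higher and 1 lower, with a median of 0.17, against -0.02 over all genes. In 13 genes every tamoxifen array lay above every control array and in 5 below, against 11.2% and 11.6% of all genes. MRPS23 had the smallest p-value, with a difference of 1.02 (SE 0.15, adjusted p = 0.000798), a 2.03-fold signal. MRPL42 (0.52, SE 0.11, adjusted p = 0.00556) and MRPL19 (0.79, SE 0.16, adjusted p = 0.00589) followed in the large subunit. The other genes that were higher were MRPL47 (0.76), MRPL38 (0.54), MRPL12 (0.49), MRPS12 (0.44), MRPL41 (0.34) and MRPS14 (0.33).

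The 4 genes lower with tamoxifen were MRPS9 (-0.40, SE 0.099, adjusted p = 0.0165), MRPL32 (-0.38, SE 0.12, adjusted p = 0.0465), MRPL10 (-0.30) and MRPL46 (-0.28). MRPL10 anchors the stalk formed by MRPL12 to the ribosome. Only 5 of the 13 calls, those of MRPL19, MRPL42, MRPL47, MRPS9 and MRPS23, were kept in every alternative. The calls of MRPS12, MRPS14 and MRPL41 were lost without control 1 or 4 or tamoxifen 1, 3 or 4 (adjusted p up to 0.103), that of MRPL12 without control 2 or 4 or tamoxifen 1 or 3 (up to 0.0619), and that of MRPL38 without control 1 or 3 or tamoxifen 2 or 3 (up to 0.101). MRPL10 lost its call without control 1, 2 or 3 or tamoxifen 1, 3 or 4 (up to 0.0956), MRPL46 in 10 of the 16 fits and MRPL32 in 12. The number higher fell to 4 without tamoxifen 3 and to 5 without control 1, control 4 or tamoxifen 1. The number lower fell to 1 without control 1 or without tamoxifen 1, 3 or 4, and to 2 without control 2, 3 or 4, estradiol 1, tamoxifen 2, combination 1 or combination 2. MRPL54 did not pass (adjusted p = 0.136), and did so without control 2 (0.0384).

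With the combination, 11 of the 62 genes were higher than in controls and 1 was lower, against 10.6% of all genes that were higher and 9.09% that were lower. As shares of the members these are 17.7% and 1.61%. The MRPL genes gave 8 of 40 higher and 1 lower, with a median difference of 0.10. The MRPS genes gave 3 of 22 higher and 0 lower (5 and 1 at an unadjusted p under 0.05, limma), with a median of 0.22, against -0.01 over all genes. In 15 genes every combination array lay above every control array and in 4 below, against 15.2% and 13.9% of all genes. MRPS23 again had the smallest p-value (1.03, SE 0.15, adjusted p = 0.000534, a 2.04-fold signal). It was followed by MRPL47 (1.01, SE 0.18, adjusted p = 0.00213, 2.01-fold), MRPS12 (0.55, SE 0.12, adjusted p = 0.00881) and MRPL12 (0.55, SE 0.13, adjusted p = 0.0124).

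These 4 calls were kept in every alternative, and the other 8 were each lost in at least 1 fit without a single array. They were MRPL54, whose control mean lay under the filter's floor (adjusted p = 0.0364, no size given), MRPL19 (0.56, 0.0285), MRPL42 (0.37, 0.0289), MRPL41 (0.36, 0.0286), MRPL57 (0.36, 0.0414), MRPS14 (0.36, 0.0195), MRPL33 (0.33, 0.0331) and, lower, MRPL32 (-0.38, SE 0.12, adjusted p = 0.0388). The call of MRPS14 was lost without control 1 or combination 4 (adjusted p up to 0.059), and that of MRPL19 without control 1 or 3 or combination 3 or 4 (up to 0.0887). MRPL41 lost its call without control 1 or 4 or combination 1, 2 or 4 (up to 0.0791), MRPL42 without control 2 or 3 or any combination array (up to 0.0741), and MRPL54 without control 1 or 4 or combination 2, 3 or 4 (up to 0.105). MRPL32 lost its call without control 1 or 3 or combination 1, 2 or 3 (up to 0.114), MRPL33 without any 1 of the 8 control and combination arrays (up to 0.0898), and MRPL57 in 10 of the 16 fits (up to 0.0953). Without MRPL54, 10 of 61 members were higher. The number higher fell to 4 without combination 4, to 5 without control 1, to 6 without combination 2, and to 7 without control 4, combination 1 or combination 3. The number lower was 0 without control 1, control 3 or combination 1, 2 or 3, and 2 without control 4 or combination 4. MRPS9, lower in the arms with a single drug, stood at -0.23 (SE 0.099, adjusted p = 0.131) with the combination and did not pass. MRPS28 missed the threshold at 0.29 (adjusted p = 0.0505).

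Adding tamoxifen to estradiol is seen by setting the combination against estradiol alone. Of the 62 genes, 0 were higher and 2 were lower (2 and 15 at an unadjusted p under 0.05, limma), against 0.448% and 0.878% of all genes. Both were MRPL genes found only in mitochondria. MRPL42 had signals of 378, 354, 360 and 370 in the combination arm and 531, 516, 497 and 513 in the estradiol arm, a difference of -0.49 (SE 0.11, adjusted p = 0.0396). MRPL44 had 347, 315, 373 and 302 in the combination arm and 611, 498, 642 and 453 in the estradiol arm, a difference of -0.70 (SE 0.16, adjusted p = 0.0495). The arms did not overlap for either gene. Dimmer probe sets of MRPL44 gave -0.63 (adjusted p = 0.0786), 0.84 and 0.08 in this comparison and did not pass.

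MRPL45, with 772, 663, 738 and 781 in the combination arm and 1020, 920, 880 and 1103 in the estradiol arm, did not overlap either and narrowly missed the threshold (-0.40, SE 0.096, adjusted p = 0.0524). Over the members, 8 genes had all combination arrays below all estradiol arrays and 0 the reverse, where 6.38% and 4.06% of all genes did so. The median difference was -0.09, against -0.02 over all genes. The MRPS gene with the smallest p-value was MRPS30 (-0.62, SE 0.21, adjusted p = 0.164). The count of 2 rests on single animals. It was 5 without estradiol 3, 1 without control 3, control 4, tamoxifen 2 or tamoxifen 3, and 0 without control 1, without estradiol 1, 2 or 4, and without any 1 of the combination arrays.

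Setting the combination against tamoxifen alone asks what estradiol adds to tamoxifen. Here 0 members were higher and 0 lower, and 0% of all genes passed in either direction (limma). At an unadjusted p under 0.05, 0 members were higher and 2 were lower. In 2 members every combination array lay above every tamoxifen array and in 1 below, against 1.24% and 1.68% of all genes. The median difference was 0.03 over the members. In the MRPL genes the lowest difference was -0.41 (MRPL44), and the highest was that of MRPL54, a dim probe set for which no size is given. In the MRPS genes the differences ran from -0.16 (MRPS26) to 0.17 (MRPS9). MRPL44 had signals of 347, 315, 373 and 302 in the combination arm and 426, 414, 361 and 607 in the tamoxifen arm, which overlap (-0.41, SE 0.16). MRPS9 had 345, 369, 332 and 376 in the combination arm and 302, 325, 330 and 305 in the tamoxifen arm, which do not (0.17, SE 0.099). These were the smallest p-values of each subunit, and neither passed (adjusted p = 0.9999 for both).

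Tamoxifen alone set against estradiol alone gave 0 members higher and 0 lower (2 and 10 at an unadjusted p under 0.05, limma), against 0.149% and 0.56% of all genes. The differences still leaned one way: 10 of the 62 (16.1%) were above 0, against 45.7% of all genes, and the median was -0.13, against -0.03. In 6 genes all tamoxifen arrays lay below all estradiol arrays, and the reverse held for 0; over all genes the shares were 4.55% and 2.57%. MRPL45 had the smallest p-value, with 759, 700, 765 and 799 in the tamoxifen arm and 1020, 920, 880 and 1103 in the estradiol arm (-0.37, SE 0.096, adjusted p = 0.105). Of the MRPS genes it was MRPS12, with 655, 640, 788 and 683 in the tamoxifen arm and 995, 1030, 716 and 1070 in the estradiol arm (-0.45, SE 0.12, adjusted p = 0.127). Without estradiol 3, 4 members were lower, among them MRPL45 (-0.42, adjusted p = 0.0468) and MRPS12 (-0.58, adjusted p = 0.014).

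The interaction asks whether the change with both drugs equals the sum of the changes with each drug alone. Of the members, 13 had a negative interaction, meaning a smaller signal with the combination than that sum, and 1 a positive one, against 6.55% and 4.77% of all genes. The shares of the members were 21% and 1.61%. The median was -0.23 over the MRPL genes (8 negative, 0 positive; 12 and 1 at an unadjusted p under 0.05, limma) and -0.28 over the MRPS genes (5 negative, 1 positive), against -0.01 over all genes. MRPL42 had the smallest p-value: estradiol alone gave 0.85, tamoxifen alone 0.52 and both 0.37, an interaction of -1.01 (adjusted p = 0.00223). For MRPL19 the 3 differences were 1.01, 0.79 and 0.56, an interaction of -1.24 (adjusted p = 0.00561). For MRPL44 they were 0.74, 0.45 and 0.04, an interaction of -1.15 (adjusted p = 0.00852).

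In the small subunit, MRPS12 gave -0.77 (adjusted p = 0.015), and the decrease of MRPS9 was also less than additive, which gives a positive sign (0.61, adjusted p = 0.0152). The other negative interactions were those of MRPL38 (-0.88), MRPS25 (-0.81), MRPL12 (-0.80), MRPS23 (-0.68), MRPS18A (-0.64), MRPL52 (-0.62), MRPL41 (-0.57), MRPL45 (-0.51) and MRPS14 (-0.48). The control arm enters this contrast too. The number of negative interactions was 7 without tamoxifen 1 or combination 3, 8 without control 4, estradiol 1, estradiol 2, tamoxifen 4 or combination 2, and 7 without estradiol 4 and tamoxifen 1 together. Those of MRPL12, MRPL19, MRPL38, MRPL42, MRPL44, MRPS9 and MRPS12 were kept in every alternative. The interaction of MRPL41 was lost without estradiol 2, tamoxifen 1 or combination 3 (adjusted p up to 0.0546), that of MRPS25 without control 1, estradiol 1 or combination 2 (up to 0.0644), and that of MRPS18A without control 4, estradiol 2, tamoxifen 1, tamoxifen 4 or combination 3 (up to 0.0613). Those of MRPL45, MRPL52, MRPS14 and MRPS23 were lost in 8, 11, 11 and 14 of the 16 fits without 1 array. Of the 32 dimmer probe sets tested, 3 had a negative interaction and 1 a positive one, against 6.55% and 4.77% of all genes. The positive one was that of MRPL39 (0.92, adjusted p = 0.034, limma). Of the 11 dimmer probe sets that belong to a gene whose interaction passed, 6 had its sign and 0 passed in the opposite direction. Dimmer probe sets gave -0.82, 0.82 and 0.05 for MRPL44, -0.14, 0.33 and 0.58 for MRPS25, and 0.20 for MRPS18A.

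**Figure D3:**
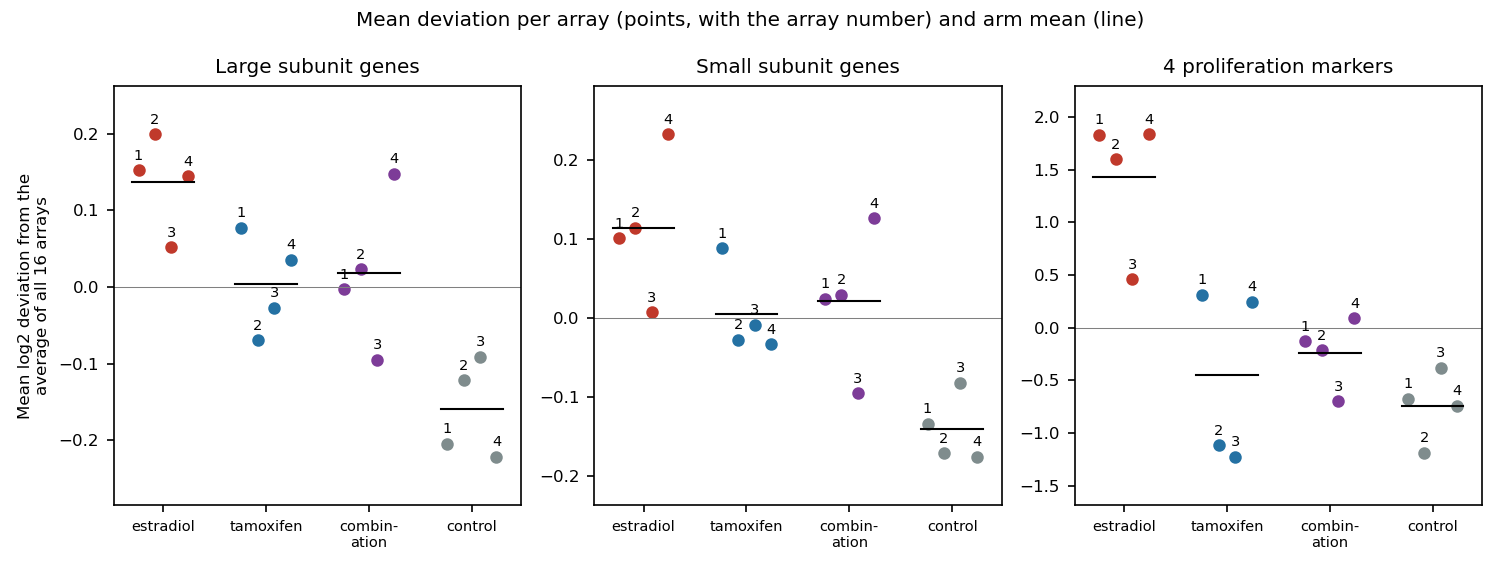
Mean log2 deviation of each array from the average of all 16 arrays, over the 40 MRPL genes, the 22 MRPS genes and 4 proliferation markers, with estradiol, tamoxifen, combination and control from left to right; points carry the array number and the line is the arm mean. Estradiol 3 is the lowest estradiol array in all 3 panels, combination 4 is the highest and combination 3 the lowest combination array, and all control arrays lie below 0.

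Summed over the set, the animals of an arm still differed. The mean deviation of the 62 genes from the average of all arrays was 0.13 ± 0.064 in the estradiol arm, 0.0045 ± 0.058 in the tamoxifen arm, 0.02 ± 0.096 in the combination arm and -0.15 ± 0.051 in the control arm (SD, n = 4 each, log2). Estradiol 3 was the lowest of its arm, at 0.036, and combination 4 the highest of its own, at 0.14. The genes moved together to a modest degree. The median correlation between 2 members over the 16 arrays was 0.25 within the MRPL genes, 0.088 within the MRPS genes and 0.21 between them, against 0.0043 between all genes. With the arm means removed it was 0.13, 0.11 and 0.14, against 0.0082. These arrays share the arms, the labelling and the scaling, and the correlations are given as a description only.

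Markers of cell division moved with the set in the estradiol arm. TOP2A, which untangles DNA, differed by 3.28 with estradiol (adjusted p = 0.00212), 0.71 with tamoxifen (0.506) and 1.25 with the combination (0.206). All 4 tested markers, TOP2A, CCNB1, CDK1 and MKI67, were higher with estradiol, and 0 were with tamoxifen or with the combination (0 at an unadjusted p under 0.05 in either, limma). Of all genes tested, 16.5% were higher with estradiol, 8.59% with tamoxifen and 10.6% with the combination. The mean deviation of these markers was 1.43 ± 0.66 in the estradiol arm, -0.45 ± 0.84 in the tamoxifen arm, -0.24 ± 0.33 in the combination arm and -0.75 ± 0.33 in controls (SD, n = 4 each). Estradiol 3, lowest for the mitochondrial ribosomal protein genes within its arm, was also lowest here, at 0.46, against 1.60 to 1.83 on the other 3 estradiol arrays.

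Markers of tissue makeup moved as well. The epithelial list (KRT8, EPCAM, MUC1 and others) averaged 0.24 in the estradiol arm, 0.22 in the tamoxifen arm, 0.26 in the combination arm and -0.73 in controls, with array ranges of -0.13 to 0.80, -0.28 to 0.85, 0.088 to 0.39 and -0.77 to -0.66. KRT8, a keratin of simple epithelium, differed by 2.10 with estradiol, 1.66 with tamoxifen and 1.61 with the combination, and passed in each. The stromal list averaged 0.37, 0.051, 0.11 and -0.53 in the same order of arms. The leukocyte list averaged 0.0035, -0.18, -0.38 and 0.56. Within its arm, estradiol 3 was also the lowest array on the epithelial list (-0.13). It was the highest on the smooth muscle (0.47), endothelial (0.095) and leukocyte (0.29) lists. On the stromal list estradiol 4 was the lowest (0.097). Of the markers tested with estradiol, 3 of 6 epithelial and 4 of 7 stromal genes were higher and 3 of 6 endothelial genes were lower. Over all genes tested, 16.5% were higher and 13.2% were lower. The 3 epithelial genes were KRT8, EPCAM and MUC1. KRT19 (0.75), CLDN4 (0.44) and KRT18 (0.09) did not pass with estradiol. Nor did they with tamoxifen (0.61, 0.31 and 0.10) or with the combination (0.27, 0.53 and -0.15). The 3 endothelial genes were EMCN, VWF and PECAM1, while CLDN5 (-0.58), CDH5 (0.11) and KDR (0.15) did not pass. The 4 stromal genes were COL1A1, COL1A2, COL3A1 and THY1, and VIM differed by 0.02. DCN (-0.82, -0.68 and -0.66 with estradiol, tamoxifen and the combination) and LUM (-0.12, -0.60 and -0.32) were below controls in each comparison and did not pass. The part of cell division or of tissue makeup in the changes above was not tested.

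The mitochondrial ribosome makes subunits of the respiratory chain, whose other subunits come from nuclear genes. For the lists below, the shares of all genes tested were 16.5% higher and 13.2% lower with estradiol. They were 8.59% and 7.64% with tamoxifen, and 10.6% and 9.09% with the combination. The interaction was negative in 6.55% of all genes and positive in 4.77%. All 7 tested nuclear genes of complex III were higher with estradiol and with tamoxifen, and 6 were with the combination, with median differences of 0.54, 0.46 and 0.45. UQCRQ had signals of 2618, 2298, 1689 and 2531 with estradiol, 1845, 1774, 1936 and 1931 with tamoxifen, 2121, 1934, 1771 and 2049 with the combination, and 1178, 1306, 1396 and 1186 in controls. Every treated animal was above every control. The remaining gene, UQCRB, differed by 0.49 with the combination (adjusted p = 0.0955). Of 25 complex I genes, 11 were higher with estradiol, 9 with tamoxifen and 9 with the combination, and 0 were lower in any (0 lower at an unadjusted p under 0.05 in each, limma). NDUFS6 (0.77, 0.55 and 0.58) and NDUFB6 (0.76, 0.68 and 0.70) had the smallest p-values with estradiol.

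Of 6 complex IV genes, 4 were higher with estradiol, 1 with tamoxifen and 2 with the combination. COX5A led them, with differences of 1.17 (adjusted p = 3e-05), 0.78 (0.00117) and 0.85 (0.000487). Of 12 complex V genes, the ATP synthase, 4 were higher with estradiol, 4 with tamoxifen and 3 with the combination. ATP5MC3, a subunit of the rotor ring, differed by 1.02, 1.11 and 1.09. ATP5G1, which the platform lists apart, is an older symbol of ATP5MC1 and is not counted. Of 3 complex II genes, SDHC alone was higher (0.63, 0.45 and 0.42). Interactions were negative in 5 complex III, 4 complex V and 4 complex I genes, in COX5A (-1.10, adjusted p = 0.00259) of complex IV and in SDHC (-0.66, 0.0178) of complex II.

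**Figure D4:**
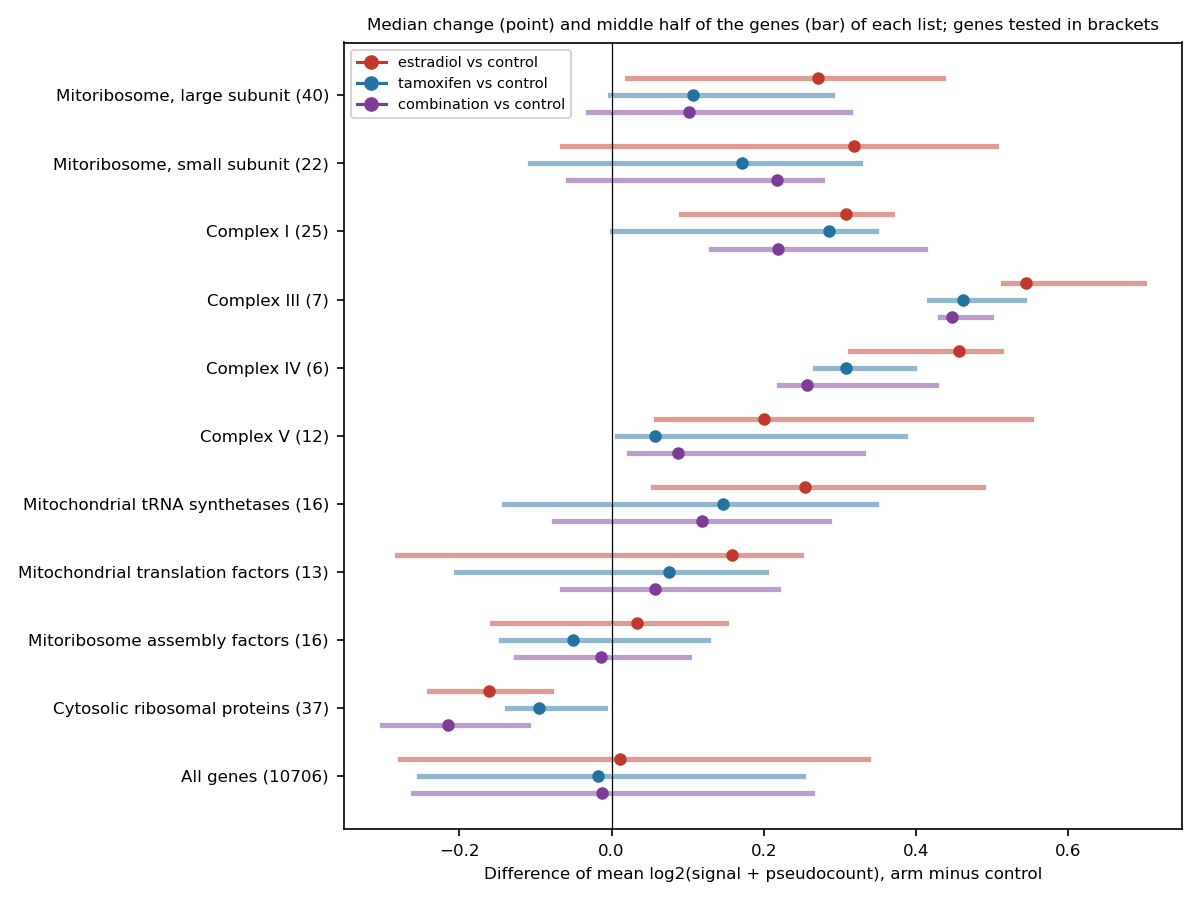
Median difference from control (points) and range from the 25th to the 75th percentile of the genes (bars) of each list on the log2(signal + pseudocount) scale, for estradiol, tamoxifen and the combination, with the number of genes tested in brackets. The medians of both subunits of the mitochondrial ribosome are highest with estradiol, the complex III medians are the highest of all lists, and the cytosolic ribosomal proteins lie below 0 in all 3 comparisons.

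The mitochondrial ribosome works with charged tRNAs and translation factors. Of 16 tRNA-charging genes of mitochondria, 6 were higher with estradiol and 1 lower, with 2 higher and 1 lower for tamoxifen and for the combination. LARS2, the leucine enzyme, differed by 0.77 with estradiol (adjusted p = 0.00563) and MARS2, the methionine enzyme, by 0.61 (0.00584), while HARS2, the histidine enzyme, was lower with each treatment (-0.52, -0.44 and -0.42). Of 13 translation factors, 1 was higher and 1 lower with estradiol: LRPPRC, which stabilises mitochondrial messenger RNA, differed by 0.41 (adjusted p = 0.0144), and MTIF2, the initiation factor that joins the subunits, by -0.50 (0.00274). MTIF2 was also lower with tamoxifen (-0.48) and with the combination (-0.55).

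Of 16 assembly factors of the mitochondrial ribosome, 1 was higher and 1 lower with estradiol, MTERF3 (0.47) and METTL17 (-0.45), and the median was 0.03. With tamoxifen MTERF4 (-0.54) and METTL17 (-0.35) were lower and GTPBP10 (0.43) was higher. METTL17 was also lower with the combination (-0.37). The 4 further ribosomal proteins that carry other symbols (DAP3, AURKAIP1, GADD45GIP1 and CHCHD1) gave 0 higher and 0 lower with estradiol (2 and 0 at an unadjusted p under 0.05, limma), with AURKAIP1 at 0.24 (adjusted p = 0.0549) and GADD45GIP1 at 0.33 (0.0569). Of 9 genes that act on mitochondrial DNA or its RNA, TOP1MT (0.84) and TFAM (0.37) were higher with estradiol, where 16.5% of all genes were. PNPT1, which degrades mitochondrial RNA, was lower with each treatment (-1.18, -0.90 and -0.79).

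Of 8 genes that regulate the making of mitochondria, MYC was higher with estradiol (1.06, adjusted p = 0.00172) and differed by -0.10 with tamoxifen and -0.17 with the combination, neither of which passed. GABPB1 was lower with the combination (-0.41, adjusted p = 0.0307) and did not pass with either drug alone. NRF1, a transcription factor known to bind the promoters of many of these genes, was lower with each treatment (-0.56, -0.49 and -0.59, adjusted p = 0.00253, 0.0119 and 0.0036). NRF1 had signals of 548, 620, 685 and 549 with estradiol, 571, 620, 691 and 639 with tamoxifen, 631, 631, 532 and 561 with the combination, and 985, 976, 876 and 734 in controls. Every treated animal was below every control. Of 18 import and chaperone genes, 4 were higher and 1 lower with estradiol, led by PHB1 (0.74, adjusted p = 0.00019) and TOMM7 (-0.52, 0.000505). Over all genes tested, 16.5% were higher and 13.2% were lower.

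The ribosomal proteins of the cytosol did not share the pattern. Of 37 tested, 1 was higher and 10 were lower with estradiol, 1 and 4 with tamoxifen, and 1 and 14 with the combination. The median differences of the mitochondrial ribosomal protein genes were 0.29, 0.12 and 0.14 in the 3 comparisons, against -0.16, -0.10 and -0.21 for the cytosolic ones. The shares that were higher with estradiol were 40.3% of the mitochondrial and 2.70% of the cytosolic set. These lists are described by their counts only, and their difference was not tested.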

How the data were processed

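Endometrial RNA of 16 animals, 4 in each of 4 arms, was measured on 1-colour arrays, 1 array per animal. The deposited values are probe set intensities on a linear scale, made by the authors with GCOS, Affymetrix Expression Console and MAS5, per the submitters' processing notes. Their mean after trimming 2% at each end was 250.0 on every array, the array medians ran from 58.7 to 70.3, and no 2 arrays were identical. The number of arrays limits the precision.

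Values were taken as log2(signal + 4.80), where 4.80 is the 10th percentile of all values. The 99 control probe sets were left out, as were the dimmest 40% of the others by mean, leaving 31660 of 52865. The linear model held 1 mean for each arm, with the 16 arrays in 1 fit and 12 residual degrees of freedom (R 4.3.3; limma 3.58.1, lmFit and eBayes, with the prior variance following the signal), and p-values were adjusted by Benjamini-Hochberg within each of 7 comparisons. Figures were drawn with matplotlib 3.10.9 in Python 3.11.15.

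RefSeq symbols were counted in a table of a cynomolgus assembly. Genes were named from the platform annotation, which gave 24956 probe sets 1 symbol and 361 several. Of the probe sets with several symbols, 1 held a member and was not used. A gene stands for its probe set of highest mean log2 value. Arms were taken from the sample labels. The members and all gene lists were chosen with earlier results of these data known, so no list is independent support for a direction.

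Values on every array are given for the 4 members of each subunit with the smallest p in the estradiol and combination arms against control, the 2 with the smallest p for tamoxifen against control, the one with the smallest p in each other comparison, MRPL12, MRPS12 and MRPS22, and the members with the highest and lowest change against control. Other members that passed are named with their change. MRPS26, the array extremes of ACTG2 and the array values of NRF1, UQCRQ and of members that narrowly missed the threshold were added after their values were seen. From related lists, up to 4 genes with the smallest p and those that passed the other way with estradiol are named. Of those that passed only in another comparison, some are named.

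Alternatives were pseudocounts of 1 and 32, no filter, quantile normalization, median centring, no variance trend, the compared arms alone, a replicate block, the probe set of highest linear mean, leaving out estradiol 4 and tamoxifen 1, and leaving out each array in turn. Leaving out members with an arm mean under the filter's floor (MRPL54) was added after seeing the data. A description of promoter motifs was planned and was not run, because no promoter sequences were used here.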

Additional observations from a re-analysis of the deposited data

Results flagged for a closer look

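For the members described array by array, 76 groups of 4 arrays were examined, and 3 held an array far from the other 3. Chance alone marks about 1 in 20 such groups, so 3 of 76 is no more than chance gives. MRPS23 was low in estradiol 3, at 861, against 1131 to 1194 on the other estradiol arrays. MRPS30 was high in combination 4, at 1015, against 753 to 782 on the other combination arrays, and low in control 2, at 626, against 834 to 862 on the other controls.

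The effect of tamoxifen differed between animals with and without estradiol for 14 members, by the interaction in limma with an adjusted p under 0.05. The interaction was -1.24 for MRPL19, -1.15 for MRPL44, -1.01 for MRPL42, -0.88 for MRPL38, -0.80 for MRPL12, -0.62 for MRPL52, -0.57 for MRPL41 and -0.51 for MRPL45. It was -0.81 for MRPS25, -0.77 for MRPS12, -0.68 for MRPS23, -0.64 for MRPS18A, -0.48 for MRPS14 and 0.61 for MRPS9, all on the log2 scale.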

How the results depend on the processing

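No member that passed changed direction under any alternative. With the compared arms alone, 13 members were higher with estradiol in place of 25, and 2 were lower with tamoxifen in place of 4. Without the filter, and without the variance trend, 1 member was lower with tamoxifen and 0 with the combination in place of 1, and with quantile normalization 2 were lower with the combination. The 2 members lower in the combination than with estradiol were 1 with a pseudocount of 1, quantile normalization, median centring or no variance trend, and 0 with no filter, the compared arms alone or the replicate block. Without estradiol 4 and tamoxifen 1, that count was 0, 2 members were lower with estradiol in place of 1, and the interaction had a median of -0.16 in place of -0.25 with 7 negative in place of 13. The causes were not tested. Without MRPL54 the counts stayed within 1.5 times and no median changed sign.

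With 1 array left out, the estradiol median ranged from 0.25 to 0.33, with 17 to 26 higher and 1 to 2 lower. For tamoxifen the median ranged from 0.084 to 0.14, with 4 to 10 higher and 1 to 4 lower, and for the combination from 0.083 to 0.18, with 4 to 12 higher and 0 to 2 lower. The combination against estradiol gave medians of -0.13 to -0.056 with 0 to 5 lower, and against tamoxifen medians of -0.016 to 0.069. Tamoxifen against estradiol gave -0.16 to -0.12 with 0 to 4 lower, and the interaction -0.29 to -0.19 with 7 to 14 negative and 1 positive. The median of combination against tamoxifen was below 0 only without combination 4.

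The sample labels do not say whether the replicate numbers pair the animals. Deviations of same-numbered arrays correlated at -0.27 to 0.095 over 24 pairs, against -0.50 to 0.51 over 72 pairs with different numbers. These correlations cannot exclude a pairing, because one with little shared effect would give similar values. With the replicate block, 24 members were higher and 1 lower with estradiol, 7 and 3 with tamoxifen, 10 and 1 with the combination, and the interaction was negative in 12 and positive in 1. Signals near background limit MRPL54, MRPS6 and MRPL58, the dimmest members (mean signals 67.4, 74.1 and 96.7).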
